A study of Mus musculus with 11 samples.

Results

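The genes described here encode the enzymes that make pyrimidine nucleotides from small precursors and turn ribonucleotides into the building blocks of DNA. The list was set by known function, with earlier results of these data known. It holds 9 genes: Cad, Dhodh, Umps, Ctps, Ctps2, Tyms, Rrm1, Rrm2 and Rrm2b. Of these, 8 had a probe set annotated with their symbol alone and are counted as members, out of 21312 genes with such a probe set on the array. The Tyms probe set also names the pseudogene Tyms-ps, so its signal cannot be given to one of them. It is described apart and enters no count.

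RNA was measured on 11 Affymetrix mouse arrays, each hybridised with amplified RNA from a pool of 40 late 2-cell embryos taken from several females. All embryos came from oocytes that lacked Ring1, and were fertilised in vitro with wild-type sperm. Ring1 and Rnf2 encode paralogous ubiquitin ligases of Polycomb repressive complex 1. The mutant embryos came from oocytes that lacked Rnf2 as well, so the control embryos are themselves maternal Ring1 mutants and the comparison of genotypes is one of maternal Rnf2. There were 3 untreated control pools, 3 untreated mutant pools, 3 control pools treated with α-amanitin and 2 mutant pools treated with α-amanitin. The inhibitor of RNA polymerase II transcription was given at 24 µg/ml from 6 h after fertilisation until harvest at 35 h. The background was mixed 129/Sv and C57BL/6J, with females of 5 to 10 weeks and males of 10 to 16 weeks. The Cre line behind the oocyte deletion and the harvest time of the untreated pools are not stated in the labels. The labels call the arrays of a group biological replicates.

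Cells make uridine monophosphate in a short chain of steps. CAD carries the opening reactions, DHODH oxidises dihydroorotate at the inner mitochondrial membrane, and UMPS completes the ring nucleotide. CTP synthases aminate UTP to CTP, thymidylate synthase methylates dUMP to dTMP, and ribonucleotide reductase reduces ribonucleoside diphosphates to the deoxy form. The reductase pairs a large subunit, RRM1, with a small subunit that is either RRM2, typical of S phase, or RRM2B, known as p53-inducible. Early cleavage divisions start on stores made in the oocyte, and the mouse embryonic genome is first strongly transcribed at the 2-cell stage. Blocking transcription with α-amanitin is used to set RNA made by the embryo apart from RNA already present.

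The arrays were alike in overall level, with medians of 4.45 to 4.55 on the log2 scale and correlations of 0.966 to 0.984 within groups. Differences below are thus relative to the other RNA on an array, and amounts of RNA per embryo were not measured. Rnf2 followed its labels. It measured 6.84, 6.59 and 6.70 in untreated controls, 5.00, 5.17 and 5.08 in untreated mutants, 7.31, 6.89 and 7.02 in treated controls, and 5.18 and 5.24 in treated mutants. Probe sets brighter than 6 on the log2 scale made up 15.1% to 16.1% of all on untreated control arrays, 11.9% to 12.9% on untreated mutant arrays and 11.2% to 12.6% on treated control arrays. The 2 treated mutant arrays differed from each other, with 11.0% in replicate 1 and 14.2% in replicate 2, the latter above every treated control and untreated mutant array. Of the 6846 genes with a mean of at least 5, 91.1% were higher in replicate 2 than in replicate 1, by a median of 0.30. All 9 of the listed enzymes, Tyms included, were higher in it too, by a median of 0.37. The part of these differences in brightness in the results was not tested, and enzyme values without each treated mutant array are given where they change a call or move a printed value by over 1.5 times. Egg and 2-cell markers were present, and 7 of the 9 measured were higher in untreated mutants than in untreated controls while 2 were lower. Cumulus markers averaged 4.35 to 4.61 per array and sperm markers 4.39 to 4.63, close to the array medians. Of 10 cumulus markers, Amhr2, at 6.43 to 6.87 in untreated controls, fell by 1.68 in untreated mutants, and Cyp19a1 rose by 0.44. Of 7 sperm markers, Ldhc fell by 0.62 and Prm2 rose by 0.61. In controls Amhr2 was 2.1 higher without α-amanitin and Ldhc 0.63 higher, and their interactions were −1.64 and −0.59. Zfp352, a gene transcribed at the 2-cell stage, averaged 9.26 in untreated controls and 9.93 in untreated mutants, against 5.37 and 4.88 under α-amanitin. Obox6, another egg and 2-cell marker, was instead lower in untreated mutants. It averaged 6.63 in untreated controls and 4.86 in untreated mutants, against 3.95 and 3.77 under α-amanitin. The part of these markers in the results below was not tested. In pooled embryos, fewer embryos or cells with a transcript and less transcript in each cannot be told apart.

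In untreated embryos without maternal Rnf2, 5 of the 8 enzymes were lower than in controls and 1 was higher. Cad, Umps, Rrm1, Rrm2 and Rrm2b fell and Dhodh rose, while Ctps and Ctps2 did not pass the test. The median difference over the 8 was −0.65 on the log2 scale, and 0.01 over all genes. Calls rest on limma with an adjusted p below 0.05. Among all 34760 probe sets 13.7% were called lower in this comparison and 6.8% higher. The arrays of the 2 groups did not overlap for 7 of the 8 enzymes, against 35.0% of all probe sets. Among the brighter probe sets, those with a mean above the median probe set's, 26.4% were called lower and 11.7% higher. All 8 enzymes are among these brighter probe sets. Of all calls in this comparison 33.2% were higher, and with quantile normalization 52.4%.

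In control embryos, 6 of the 8 enzymes were higher without α-amanitin than with it and 2 were lower. Cad, Umps, Ctps, Ctps2, Rrm1 and Rrm2 were the 6, and Dhodh and Rrm2b were the 2. The median difference was 0.93, against −0.04 over all genes, and 15.9% of probe sets were called higher and 11.4% lower. For all 8 the arrays of the groups did not overlap, which held for 40.1% of probe sets. Among the brighter probe sets 30.1% were called higher and 20.1% lower. Of all calls 58.3% were higher, and with quantile normalization 43.2%. This comparison and the one between untreated genotypes use the same 3 untreated control arrays, so their values are given side by side and not set against each other.

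In mutant embryos, none of the 8 enzymes was called higher without α-amanitin in limma, and 1 was called lower. The background was 2.55% of probe sets higher and 1.02% lower. Among the brighter probe sets 4.79% were called higher and 1.92% lower. At an unadjusted p below 0.05, 2 enzymes were higher and 2 lower. The median difference was 0.06. The arrays did not overlap for 5 of the 8, against 26.5% of probe sets. Of all calls 71.5% were higher, and with quantile normalization 59.3%. Only 2 treated mutant arrays enter this comparison.

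Under α-amanitin, 4 of the 8 enzymes were higher in mutants than in controls and 1 was lower, with a median of 0.35 against 0.02 over all genes. Ctps, Ctps2, Rrm1 and Rrm2 were higher and Rrm2b was lower. The background was 5.52% of probe sets higher and 3.52% lower. The arrays did not overlap for 6 of the 8, against 29.8% of probe sets. Among the brighter probe sets 10.6% were called higher and 6.73% lower. The calls on Ctps2, Rrm1 and Rrm2 depended on single arrays, as given with each gene. Of all calls 61.1% were higher, and with quantile normalization 49.0%.

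The effect of treatment was then compared between genotypes as an interaction, the untreated-minus-treated difference in mutants minus that in controls. It was negative for 6 of the 8 enzymes and positive for 1, with 10.9% of probe sets called negative and 3.47% positive. Among the brighter probe sets these shares were 21.3% and 6.2%. Rrm2b alone was not called. Of all calls 24.2% were positive, against 36.4% with cyclic loess and 53.8% with quantile normalization.

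**Figure D1:**
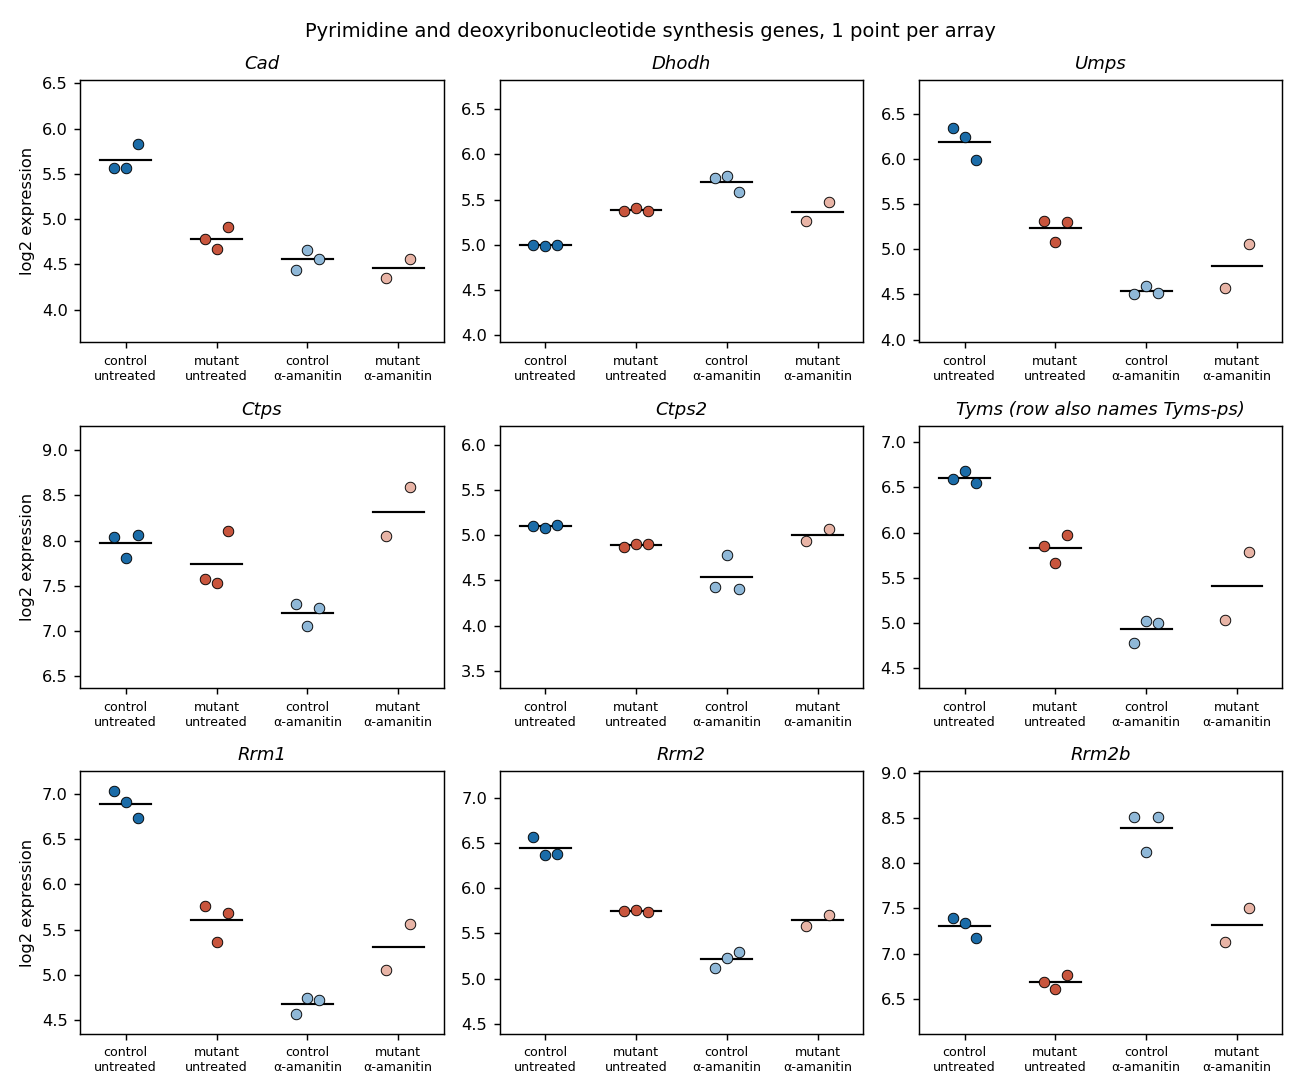
Log2 value of each enzyme on each of the 11 arrays, by group, with 1 point per array and a line at the group mean. For Rrm1 the 3 untreated control arrays lie between 6.74 and 7.03, above all other arrays.

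Cad, the multifunctional enzyme that starts pyrimidine synthesis, measured 5.57, 5.57 and 5.83 in untreated controls and 4.78, 4.67 and 4.91 in untreated mutants. It measured 4.44, 4.66 and 4.56 in treated controls and 4.35 and 4.56 in treated mutants. Untreated control arrays were the highest, with no overlap with any other group. Cad fell by 0.87 ± 0.11 (SE, n = 3 and 3, limma adjusted p = 0.000189) in untreated mutants. In controls it was 1.10 ± 0.11 higher without the inhibitor, a 2.15-fold difference (limma adjusted p = 1.55e-05). The treated genotypes overlapped and differed by −0.10 (95% confidence interval −0.37 to 0.17), or −0.21 without treated mutant replicate 2 and 0.0068 without replicate 1, and the mutant treatment difference of 0.33 ± 0.12 was not called. The interaction was −0.77 ± 0.16 (limma adjusted p = 0.00857), and −0.52 and not called with quantile normalization. The lowest group mean of Cad lay 0.10 below the highest array median. A further fall may have been hard to see, but the lowest detectable level was not tested.

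Dhodh, the mitochondrial dehydrogenase of the chain, ran the other way. It measured 5.00, 4.99 and 5.00 in untreated controls and 5.38, 5.41 and 5.38 in untreated mutants. Under α-amanitin it measured 5.74, 5.76 and 5.59 in controls and 5.26 and 5.47 in mutants. Untreated controls were the lowest group, and treated controls the highest, without overlap between the genotypes in either state. Dhodh rose by 0.40 ± 0.08 in untreated mutants (limma adjusted p = 0.00485). The untreated-minus-treated difference in controls was −0.70 ± 0.08 (limma adjusted p = 5.27e-05). Untreated and treated mutants differed by 0.02 ± 0.09, at −0.085 without treated mutant replicate 1 and 0.13 without replicate 2. The treated genotypes differed by −0.33 ± 0.09, with a limma adjusted p of 0.0502 that misses the threshold. The difference passed it in 6 alternatives: −0.46 with quantile normalization, −0.35 with median centring, −0.39 with cyclic loess, −0.33 over the brighter probe sets, −0.38 without treated control replicate 3 and −0.43 without treated mutant replicate 2. The interaction was 0.72 ± 0.12 (limma adjusted p = 0.00223), the only positive one called among the enzymes.

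Umps, the bifunctional synthase that yields UMP, measured 6.34, 6.24 and 5.99 in untreated controls and 5.32, 5.08 and 5.30 in untreated mutants. It measured 4.51, 4.59 and 4.51 in treated controls and 4.57 and 5.05 in treated mutants. Untreated controls stood above all others, and treated mutants lay above treated controls except that their lower array, at 4.57, fell within the control range. Umps fell by 0.96 ± 0.13 in untreated mutants (limma adjusted p = 0.000391). In controls it was 1.65 ± 0.13 higher without the inhibitor, 3.14-fold (limma adjusted p = 3.41e-06). The mutant treatment difference was 0.42 ± 0.15 and that between treated genotypes 0.27 ± 0.15, neither called. Without treated mutant replicate 2 these were 0.66 and 0.03, and without replicate 1 they were 0.18 and 0.52. The mutant treatment difference was called with cyclic loess, at 0.45. The interaction was −1.23 ± 0.20 (limma adjusted p = 0.0018).

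The CTP synthases gave another order. Ctps, the brighter of the 2, measured 8.04, 7.81 and 8.06 in untreated controls and 7.58, 7.53 and 8.10 in untreated mutants. It measured 7.30, 7.05 and 7.26 in treated controls and 8.05 and 8.59 in treated mutants. Untreated genotypes overlapped, and treated mutants were above treated controls without overlap. The difference between untreated genotypes was −0.23 ± 0.18, or 0.25 with quantile normalization, and was not called. Under α-amanitin Ctps was 1.12 ± 0.20 higher in mutants, 2.17-fold (limma adjusted p = 0.00519), and 0.85 without treated mutant replicate 2, still called. It was 0.77 ± 0.18 higher in untreated than in treated controls (limma adjusted p = 0.00624), and 0.37 and not called with quantile normalization. In mutants the treatment difference was −0.58 ± 0.20 and not called, and −0.31 without treated mutant replicate 2. The interaction was −1.35 ± 0.26 (limma adjusted p = 0.00512). No neighbours in the order of the 4 group means differed.

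Ctps2, the paralogue, measured 5.10, 5.08 and 5.12 in untreated controls and 4.87, 4.90 and 4.90 in untreated mutants. It measured 4.43, 4.78 and 4.41 in treated controls and 4.94 and 5.07 in treated mutants. Treated controls were below every other array. Ctps2 was 0.56 ± 0.10 higher in untreated than in treated controls (limma adjusted p = 0.00144). Its untreated genotypes did not overlap but differed by only −0.21 ± 0.10, which was not called. Under α-amanitin it was 0.46 ± 0.11 higher in mutants (limma adjusted p = 0.0289). That call was lost without treated control replicate 1 or 3, both at 0.40, and without treated mutant replicate 1, at 0.53, or 2, at 0.40. Array weights or a fit of only the groups compared ended it too. The interaction was −0.67 ± 0.15 (limma adjusted p = 0.0124) and −0.61, no longer called, without treated mutant replicate 2.

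The probe set shared by Tyms, the synthase of thymidylate, and its pseudogene measured 6.59, 6.68 and 6.55 in untreated controls and 5.85, 5.67 and 5.97 in untreated mutants. It measured 4.78, 5.02 and 5.00 in treated controls and 5.03 and 5.78 in treated mutants. Untreated controls were the highest group and treated controls the lowest, while the mutant groups overlapped each other. The shared probe set fell by 0.78 ± 0.17 in untreated mutants (limma adjusted p = 0.00605), but with quantile normalization the difference was −0.42 and not called. In controls it was 1.67 ± 0.17 higher without the inhibitor (limma adjusted p = 1.57e-05). The mutant treatment difference of 0.42 ± 0.19 was not called, but it was 0.80 and called without treated mutant replicate 2, and 0.05 without replicate 1. The treated genotypes differed by 0.47 ± 0.19, not called, and by 0.85, called, without treated mutant replicate 1 but 0.10 without replicate 2. The interaction was −1.25 ± 0.25 (limma adjusted p = 0.00591). A separate probe set for Tyms-ps alone lay between 4.02 and 4.70 on all arrays. It was 0.47 higher in untreated than in treated controls (limma adjusted p = 0.00145), and the untreated genotypes differed by −0.26, which was not called.

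Rrm1 and Rrm2, the large subunit of ribonucleotide reductase and its S-phase partner, had their untreated control arrays above those of every other group. Stretches of their RefSeq promoters (build GRCm38.p6), each of 150 bases ending at the base before the annotated start, are shown because both hold the letters CCAAT, the motif bound by NF-Y. Capitals mark these letters, and both stretches are on the plus strand, Rrm1 at chr7:102441545-102441694 and Rrm2 at chr12:24708104-24708253.
Rrm1: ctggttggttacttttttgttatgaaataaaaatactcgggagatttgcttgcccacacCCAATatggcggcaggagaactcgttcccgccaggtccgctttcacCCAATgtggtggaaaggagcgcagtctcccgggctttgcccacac
Rrm2: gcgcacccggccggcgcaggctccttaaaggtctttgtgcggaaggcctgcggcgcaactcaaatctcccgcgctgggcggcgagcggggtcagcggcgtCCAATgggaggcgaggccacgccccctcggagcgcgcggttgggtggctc
The matches begin at positions −91 and −45 in Rrm1 and −50 in Rrm2, counted from the annotated start. Windows from 250 bases before to 50 after the start were searched on both strands for 7 of the 9 listed genes. CCAAT occurred in Rrm1, Rrm2 and Ctps2, 3 of the 7, and in 41.1% of 27025 genes. CACGTG, the E-box, occurred in Tyms, 1 of the 7, and in 8.09% of genes. None of TTTCCCGC, TTTCGCGC, TTTGCCGC and TTTGGCGC, letters of the E2F type, was in any of the 7 windows' genes, and 2.6% of genes held at least 1. Other or shorter letters of the E2F type were not searched for. A match is a description of letters only.

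Rrm1 measured 7.03, 6.91 and 6.74 in untreated controls and 5.76, 5.36 and 5.68 in untreated mutants. It measured 4.57, 4.74 and 4.72 in treated controls and 5.05 and 5.56 in treated mutants. Treated controls were the lowest group, and the mutant groups overlapped each other. The treated control mean lay 0.13 above the highest array median, and whether a further fall could have been seen was not tested. Rrm1 fell by 1.29 ± 0.15 in untreated mutants, 2.45-fold (limma adjusted p = 0.000101). In controls it was 4.64-fold higher without the inhibitor (limma adjusted p = 7.65e-07), the largest treatment difference among the 8. In mutants the treatment difference was 0.30 ± 0.16 and not called, at 0.04 without treated mutant replicate 1 and 0.55 without replicate 2. The interaction was −1.92 ± 0.22 (limma adjusted p = 0.000247). Under α-amanitin Rrm1 was 0.63 ± 0.16 higher in mutants (limma adjusted p = 0.0377). That call was lost at 0.37 without treated mutant replicate 2, at 0.57, 0.66 and 0.65 without treated control replicates 1, 2 and 3, and at 0.63 without replicate 2 of the untreated controls or replicate 3 of the untreated mutants. Median centring, array weights or a fit of only the groups compared ended it too.

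Rrm2 measured 6.57, 6.37 and 6.38 in untreated controls and 5.74, 5.76 and 5.74 in untreated mutants. It measured 5.11, 5.23 and 5.29 in treated controls and 5.58 and 5.70 in treated mutants. The 4 groups did not overlap. Rrm2 fell by 0.69 ± 0.08 in untreated mutants (limma adjusted p = 0.000152). In controls it was 1.23 ± 0.08 higher without the inhibitor, 2.34-fold (limma adjusted p = 9.49e-07). The mutant treatment difference was 0.10 ± 0.09, at 0.04 without treated mutant replicate 1 and 0.16 without replicate 2. Under α-amanitin it was 0.43 ± 0.09 higher in mutants (limma adjusted p = 0.0162), a call lost at 0.38 without treated control replicate 1 and at 0.37 without treated mutant replicate 2. Quantile normalization, at 0.33, array weights or a fit of only the groups compared ended it too. The interaction was −1.125 ± 0.13 (limma adjusted p = 0.000224).

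Rrm2b, the alternative small subunit, followed a pattern of its own among the 3 reductase genes. It measured 7.40, 7.34 and 7.18 in untreated controls and 6.68, 6.61 and 6.77 in untreated mutants. It measured 8.52, 8.13 and 8.51 in treated controls and 7.13 and 7.50 in treated mutants. Treated controls were the highest group and untreated mutants the lowest, while treated mutants overlapped untreated controls. Rrm2b fell by 0.61 ± 0.13 in untreated mutants (limma adjusted p = 0.0057). With quantile normalization that difference was −0.19 and not called. In controls the untreated-minus-treated difference was −1.08 ± 0.13, 2.12-fold lower without the inhibitor (limma adjusted p = 6.92e-05). In mutants the same difference was −0.63 ± 0.15 (limma adjusted p = 0.0419). That call was lost when any of 9 of the 11 arrays was left out, at −0.44 without treated mutant replicate 2. Under α-amanitin the mutant-minus-control difference of Rrm2b was −1.07 ± 0.15, 2.1-fold lower in mutants (limma adjusted p = 0.00129). It was −1.25 without treated mutant replicate 2 and still called. The interaction of 0.45 ± 0.19 was not called, and was 0.27 without treated mutant replicate 1, but it was 0.83 and called with quantile normalization.

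**Figure D2:**
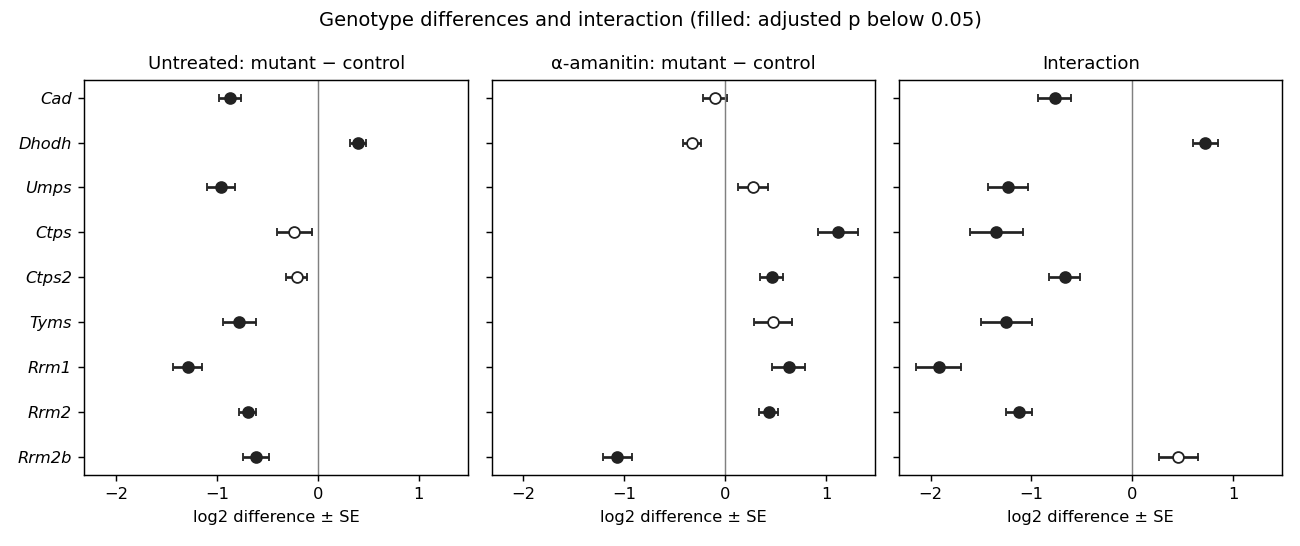
Log2 differences between mutant and control embryos, untreated and under α-amanitin, and the interaction, each with its SE from limma, filled where the adjusted p is below 0.05. Rrm1 lies at −1.29 untreated and at 0.63 under α-amanitin, and Rrm2b is below 0 in both.

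**Figure D3:**
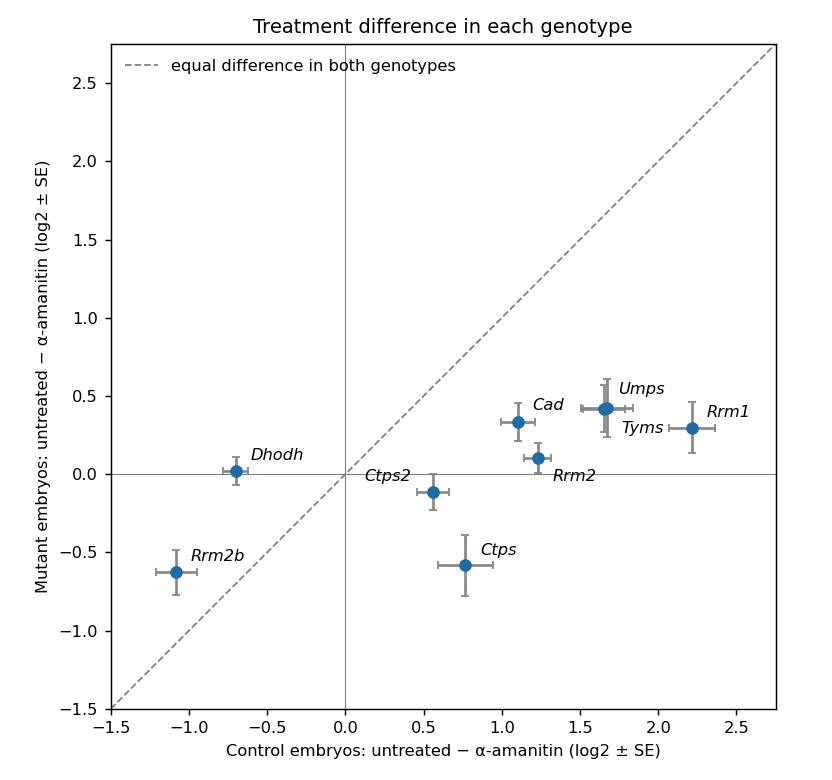
Untreated minus α-amanitin log2 difference of each enzyme in control embryos (horizontal) and in mutant embryos (vertical), with SE from limma and a dashed line where both would be equal. Cad lies at 1.10 and 0.33, and Dhodh and Rrm2b lie above the line while the others lie below it.

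Other genes of nucleotide supply were read from 6 lists with 65 genes measured: salvage kinases and phosphorylases, nucleotide kinases and pool control, folate and one-carbon genes, nucleotidases and breakdown, reductants of the reductase, and ribose supply and transport. In untreated mutants 20 of the 65 were lower and 10 higher, where 13.7% and 6.8% of all probe sets were, and the list median of 0.003 lay beside 0.014 over all genes. In controls 25 were higher without α-amanitin and 12 lower, against 15.9% and 11.4% of probe sets. In mutants 4 were higher and 0 lower in limma, with 5 and 8 at an unadjusted p below 0.05, against 2.55% and 1.02% of probe sets. Without treated mutant replicate 1, 3 were higher and 2 lower, and without replicate 2, 3 and 0. Under α-amanitin 9 were higher in mutants and 0 lower in limma, with 14 and 2 at an unadjusted p below 0.05, against 5.52% and 3.52% of probe sets. Without treated mutant replicate 1, 10 were higher and 0 lower, and without replicate 2, 7 and 1. The interaction was negative for 19 and positive for 1, against 10.9% and 3.47% of probe sets. Without treated mutant replicate 1 these were 21 and 1, and without replicate 2, 17 and 4. Among the brighter probe sets 26.4% were lower and 11.7% higher in untreated mutants. In controls 30.1% of them were higher without α-amanitin and 20.1% lower, and in mutants 4.79% and 1.92%. Under α-amanitin 10.6% were higher in mutants and 6.73% lower, and interactions were negative for 21.3% and positive for 6.2%. How many of the 65 are among the brighter probe sets was not counted.

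The list counts below stand beside 15.9% of all probe sets higher in untreated than in treated controls and 11.4% lower. Among the brighter probe sets these shares were 30.1% and 20.1%. Among the salvage genes, 6 of 10 were higher in untreated than in treated controls and 2 lower. Uck2, a uridine-cytidine kinase, was 1.85 ± 0.17 higher there, and it fell by 1.36 in untreated mutants. Tk1, the cytosolic thymidine kinase, fell by 1.01 in untreated mutants. Uprt, named as a uracil phosphoribosyltransferase, differed by −0.71 ± 0.11 between untreated and treated controls and was 0.67 higher in untreated mutants than in untreated controls. Of 12 nucleotide kinase and pool genes, 4 were higher and 5 lower in untreated controls than in treated ones. Dtymk, which phosphorylates dTMP, was 1.96 ± 0.13 higher there and fell by 1.44 in untreated mutants. Nme1 and Nme2, near-identical neighbouring diphosphate kinases whose probes may share signal, were 3.09 ± 0.20 and 4.21 ± 0.21 higher there. Dut, which hydrolyses dUTP to dUMP, was 0.70 ± 0.12 higher in treated mutants than in treated controls. Of 9 nucleotidase and breakdown genes, 2 were higher and 1 lower in untreated controls. Nt5c3b and Nt5c, which encode nucleotidases, were 1.82 ± 0.16 and 1.42 ± 0.16 higher there, and they fell by 1.48 and 1.11 in untreated mutants.

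Among 14 folate and one-carbon genes, 6 were higher and 2 lower in untreated than in treated controls. Shmt1, the cytosolic serine hydroxymethyltransferase, was 1.65 ± 0.14 higher there, and the mitochondrial Mthfd2 gave −1.43 ± 0.13, lower without the inhibitor. In untreated mutants Shmt1 fell by 1.24 while Mthfd2 rose by 0.77. Under α-amanitin Mthfd1, the trifunctional cytosolic enzyme, was 0.99 ± 0.14 higher in mutants. Fpgs, which adds glutamates to folates, was 0.92 ± 0.15 higher. The 2 treated mutant arrays measured 5.718 and 6.155 for Mthfd1 and 6.335 and 6.824 for Fpgs. For single genes of the lists, differences without each treated mutant array are not given. Of 8 reductant genes, 3 were higher and 2 lower in untreated controls. Glrx2, a mitochondrial glutaredoxin, was 2.60 ± 0.15 higher there and fell by 1.06 in untreated mutants. Gsr, glutathione reductase, fell by 0.70 in untreated mutants and was 0.59 ± 0.11 higher in treated mutants than in treated controls.

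Of 12 ribose and transport genes, 4 were higher in untreated than in treated controls. Slc29a2, an equilibrative nucleoside transporter, was 1.01 ± 0.10 higher there, and Slc25a36, a mitochondrial pyrimidine nucleotide carrier, was 1.30 ± 0.15 higher. They fell by 0.91 and 1.31 in untreated mutants. Prps1, which makes the ribose donor PRPP, was 5.46 ± 0.27 higher in untreated than in treated controls, 44.0-fold (limma adjusted p = 1.61e-07). In mutants it was 3.69 higher, 12.9-fold, and still called. Its paralogue Prps2 was 1.54 higher in untreated mutants than in untreated controls and 2.21 ± 0.17 higher in treated mutants than in treated controls.

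**Figure D4:**
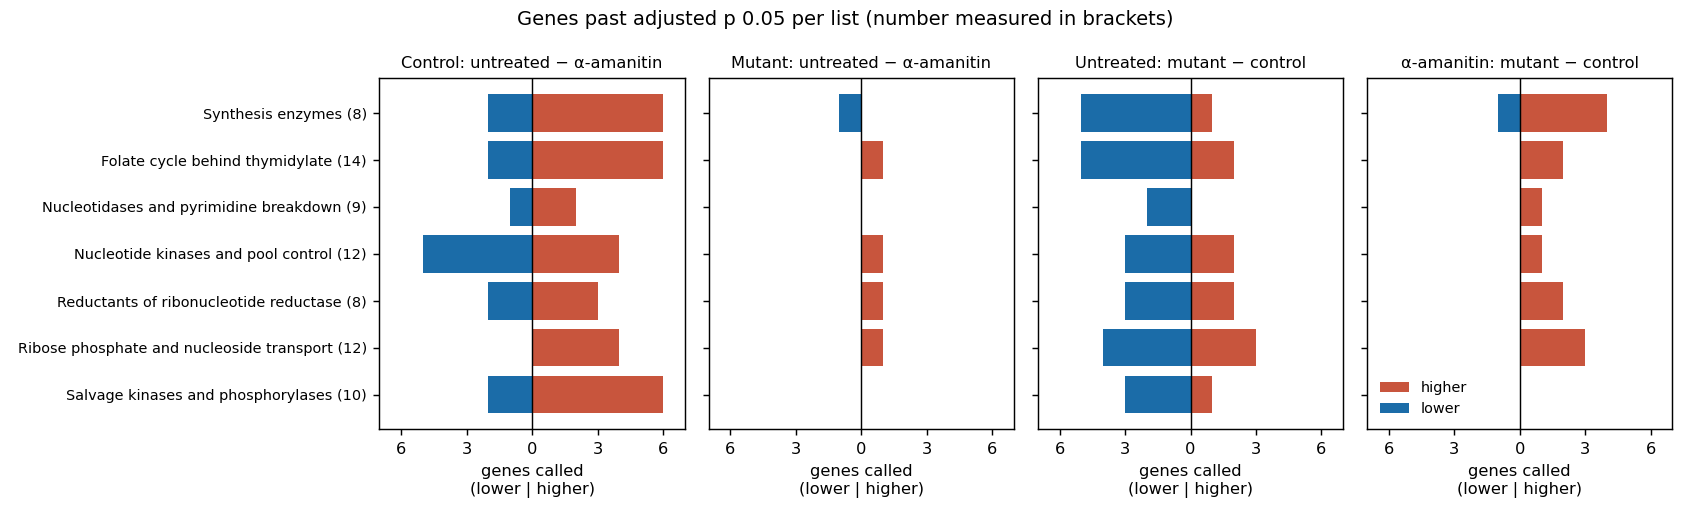
Number of genes called higher or lower by limma in each list, with 1 panel per comparison, bars to the right for higher and to the left for lower. In control embryos 25 of the 65 genes outside the member list were higher without α-amanitin and 12 were lower.

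The genes whose centred values over the 11 arrays lay nearest to an enzyme were found by the root mean square of the log2 difference. They are given for 5 of the enzymes whose group means spanned at least 1. Each search covered 5982 genes with a mean of at least 5, so a nearest gene is the smallest of many distances. Nearest to Umps was Aurkb, the mitotic kinase Aurora B, at 0.0814. Nearest to Rrm1 was Alas1, the first enzyme of heme synthesis, at 0.0811, and nearest to Rrm2 was Plin2, a lipid droplet protein, at 0.0758. The next for Rrm2 was Gmps, the GMP synthetase of purine synthesis, at 0.0831. Nearest to Ctps was Trim13, at 0.119, and nearest to Rrm2b was Ttc37, at 0.0944. Among the enzymes themselves the closest pair was Umps and the shared Tyms probe set, at 0.14, and the farthest was Rrm1 and Rrm2b, at 1.3. Ctps and Ctps2 were 0.312 apart.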

How the data were processed

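Values were the authors' deposited log2 expression values for 34760 Affymetrix probe sets on 11 arrays. The submitters' processing notes name R 2.10.0 and affy. Those sources state no summarisation method or genome build. Symbols came from the deposited annotation: 23146 probe sets had 1 symbol, 1466 several and 10148 none. Each gene used its brightest probe set with 1 symbol, and each member had 1. Probe sets were matched by symbol alone, and their positions in the genome were not checked, also for list genes such as Nme2 and Tk1.

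Differences were fitted with limma 3.58.1 (R 4.3.3) on all probe sets and arrays, with 1 mean per group and eBayes moderation. P-values were adjusted by Benjamini-Hochberg over all probe sets and called below 0.05. The fit had 7 residual degrees of freedom, so the number of arrays limits precision. The fit was tested on simulated data.

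Members and lists were chosen with earlier results of these data known. Up to 3 genes per list and comparison were eligible for naming, those with the lowest adjusted p among called genes whose groups did not overlap. Promoter letters came from RefSeq. Other normalizations, filters, fits and each array left out were tried. List counts without each treated mutant array were added after seeing the data. One gene's likeness result is not reported here.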

Additional observations from a re-analysis of the deposited data

Results flagged for a closer look

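The effect of α-amanitin differed between control and mutant embryos by the test of the difference itself for 7 of the 8 enzymes and for the shared Tyms probe set. In each case the value is the untreated-minus-treated log2 difference in mutants minus that in controls. It was −1.92 for Rrm1, −1.35 for Ctps, −1.23 for Umps, −1.125 for Rrm2, −0.77 for Cad and −0.67 for Ctps2. The shared Tyms probe set gave −1.25. Dhodh gave 0.72, the only positive value called. Rrm2b, at 0.45, was not called. Among all probe sets 10.9% were called negative and 3.47% positive, and among the brighter ones 21.3% and 6.2%. The positive share of all calls was 24.2%, and 53.8% with quantile normalization. With that normalization Cad, at −0.52, was not called and Rrm2b, at 0.83, was. Without treated mutant replicate 2 Ctps2, at −0.61, was not called. Groups held 2 or 3 arrays, too few for a test of single arrays that lie far from the others.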

How the results depend on the processing

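Of the alternative values for single enzymes, Tyms included, 792 kept their direction and their side of the threshold, 41 lost the call, 10 gained it and 3 changed sign. The 792 include values that could not change direction. The trended prior, the brighter probe sets, only the groups compared and leaving out an array of another group keep the difference itself. The sign changes were Ctps between untreated genotypes at 0.25 with quantile normalization, and, without treated mutant replicate 1, Cad between treated genotypes at 0.0068 and Dhodh between untreated and treated mutants at −0.085. Leaving out arrays gave −0.21 to 0.0068 for that difference of Cad and −0.085 to 0.13 for that of Dhodh. Under α-amanitin, the enzymes called higher in mutants numbered 1 with array weights, 1 with only the groups compared and 2 with the replicate block, and those called lower numbered 2 with quantile normalization, 2 with median centring, 2 with cyclic loess and 2 over the brighter probe sets. Probe sets called there numbered 3144, and 2050 with array weights and 1231 with only the groups compared. Between untreated and treated mutants, 1 enzyme was higher with cyclic loess, and 0 were lower in limma with median centring, array weights, a trended prior, the replicate block or only the groups compared. At an unadjusted p below 0.05 the reported fit had 2 lower. Probe sets called there numbered 1238, and 2177 with quantile normalization, 558 with array weights and 142 with only the groups compared. With quantile normalization 2 enzymes had a positive interaction. Leaving out each array in turn gave 1 to 4 enzymes higher and 1 to 2 lower under α-amanitin, 0 to 1 lower between untreated and treated mutants, with 643 to 1908 probe sets, and 5 to 6 with a negative interaction. In the untreated genotype comparison it gave 5 lower and 1 higher each time. The cause of these changes was not tested. The replicate block also ended the calls on Ctps2, at 0.44, and Rrm1, at 0.62, between treated genotypes. Whether replicate numbers pair the samples was not settled. Over 15 same-numbered pairs the correlation of deviations ran from −0.22 to 0.15, and 3 were over 0.1. Without treated mutant arrays, same-numbered pairs ran from 0.029 to 0.15 and other pairs from −0.12 to 0.037. With a treated mutant array, same-numbered pairs ran from −0.22 to −0.019. The deviations of the 2 treated mutant arrays mirror each other. Averaging all probe sets of a gene gave no other value, since each member had 1, and the interaction was not run with only the groups compared. Values close to the array medians, as for Cad, Umps, Ctps2 and Rrm1 in treated controls, may leave little room for a lower reading. The lowest detectable level was not tested, and some genes read lower, as Obox6 with a mean of 3.95 in treated controls.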
